A study of Mus musculus with 6 samples.

Results

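The Hox genes encode homeodomain transcription factors, and in the mouse they lie in 4 clusters, Hoxa, Hoxb, Hoxc and Hoxd, on chromosomes 6, 11, 15 and 2. Members were taken as the genes of the deposited normalized table whose symbol is Hox followed by the cluster letter and a number, and 2 of them are reported, Hoxa13 and Hoxd13, of 23525 genes named there. That table holds each gene with a count above 0 in at least 2 libraries. The full count table lists 53379 genes, and 38 of them are the Hox genes of the 4 clusters reported here, by their identifiers. The other 36 Hox genes therefore had a count in at most 1 library, and all 38 are described so that the silent ones are accounted for.

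Along each cluster the number in the symbol, from 1 to 13, runs from the end active in the front of the embryo to the end active in its tail. Hox proteins give cells of the body axis and the gut tube their regional identity, they bind DNA together with TALE homeodomain cofactors of the Pbx, Meis and Pknox families, and many fibroblasts keep a regional Hox code in the adult. Retinoic acid and Cdx proteins switch on Hox genes in the embryo, and Polycomb complexes keep them silent where they are not in use.

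The 6 libraries hold total RNA of tumour organoids, epithelial cultures grown in a dome of matrigel, from KPC mice of strain C57/Bl6. All 6 carry KrasLSLG12D/+ and Pdx1-Cre, in which the Pdx1 promoter drives Cre recombinase in the pancreatic epithelium and so activates the mutant alleles there. Organoid lines 6, 23 and 34 each gave 1 heterozygous library (Trp53LSLR172H/+, n = 3) and 1 library titled as having lost the wild-type Trp53 allele (loss of heterozygosity, LOH, genotype Trp53LSLR172H/-, n = 3). The descriptions of the LOH libraries also carry a suffix whose meaning no label states, and whatever it stands for cannot be told apart from the genotype. Ages are not given.

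The libraries held between 13680458 and 27917277 expected counts, and from 11582 to 12251 genes reached 1 TPM, a level scaled for both gene length and depth. Trp53 had 76.3 to 86.5 CPM (counts scaled to the size of the library) in the heterozygous and 47.4 to 73.5 CPM in the LOH libraries. The 6 epithelial markers, among them Epcam, Cdh1 and the keratins Krt8 and Krt19, summed to 2768 TPM or more in every library. The duct genes Sox9, Pdx1 and Krt19 were detected in each library, with overlapping groups. The other duct markers, Onecut1 and Spp1, were lower in the LOH libraries. Onecut1 had 3.54 to 15.2 TPM in the heterozygous and 0.07 to 0.51 TPM in the LOH libraries. Spp1 had 402.02 to 582.36 TPM against 135.94 to 216.91 TPM. All 5 islet markers and 4 of 5 acinar markers had at most 3 counts everywhere. Of 12 fibroblast markers 7 had at most 3 counts in each library, with Col3a1 and Thy1 at 0 in every one.

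The promoter sequences of Hoxa13, the 1 Hox gene with more than 3 counts in any library, and of Hoxd13, its silent paralog at the same position of the Hoxd cluster, are shown first. With them come the sequences of Evx1, the homeobox gene beside Hoxa13, and of Cdx2, an expressed homeobox gene of the Hox-related ParaHox group. Each is the stretch of 250 bases before the gene's start, from RefSeq in build GRCm38.p6, written 5′ to 3′ on the strand of the gene. Capitals mark each CpG, a C followed by a G, which is the sequence feature of the promoters that Polycomb complexes bind.
Hoxa13, chr6:52260881-52261130, minus strand: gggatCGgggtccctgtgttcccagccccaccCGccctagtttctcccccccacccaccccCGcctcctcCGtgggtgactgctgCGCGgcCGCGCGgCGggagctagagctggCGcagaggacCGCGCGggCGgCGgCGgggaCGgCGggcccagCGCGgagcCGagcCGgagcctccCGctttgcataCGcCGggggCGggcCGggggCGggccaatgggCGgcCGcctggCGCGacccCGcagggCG
Hoxd13, chr2:74667975-74668224, plus strand: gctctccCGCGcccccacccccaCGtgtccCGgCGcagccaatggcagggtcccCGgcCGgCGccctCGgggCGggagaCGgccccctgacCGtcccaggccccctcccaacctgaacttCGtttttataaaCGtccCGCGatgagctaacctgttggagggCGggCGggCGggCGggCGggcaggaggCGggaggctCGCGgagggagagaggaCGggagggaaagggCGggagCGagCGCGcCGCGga
Evx1, chr6:52313248-52313497, plus strand: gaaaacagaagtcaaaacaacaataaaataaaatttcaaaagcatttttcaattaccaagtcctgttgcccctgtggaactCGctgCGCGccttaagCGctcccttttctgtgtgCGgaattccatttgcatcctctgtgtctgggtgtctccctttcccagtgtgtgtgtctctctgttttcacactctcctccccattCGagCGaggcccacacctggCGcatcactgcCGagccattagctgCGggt
Cdx2, chr5:147307250-147307499, minus strand: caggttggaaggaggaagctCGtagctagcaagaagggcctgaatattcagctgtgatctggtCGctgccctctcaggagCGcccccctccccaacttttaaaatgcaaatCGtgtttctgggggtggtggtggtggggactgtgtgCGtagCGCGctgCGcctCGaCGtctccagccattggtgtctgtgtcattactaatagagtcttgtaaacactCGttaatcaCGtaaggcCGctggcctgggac

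The window of Hoxa13 holds 35 CpG and that of Hoxd13 holds 31, more than in 97.0% and 94.8% of 32851 promoter windows of the same length. The windows of Evx1 and Cdx2 hold 10 and 13. RefSeq windows were matched for 22 of the 38 Hox genes, 24 windows in all. These 24 windows held 2 to 35 CpG with a median of 12.5, against a median of 6 over all windows, and their GC content had a median of 58.6% against 52.4%. The letters TATAAA, searched on both strands, were found in 4 of the 24 Hox windows, Hoxd13 included and Hoxa13 not, and in 12.4% of all windows. A core of Cdx binding sites, TTTATG on either strand, was found in 5 of the 24, neither Hoxa13 nor Hoxd13, and in 10.8% of all windows. The high CpG content was thus shared by the detected Hoxa13 and the silent Hoxd13.

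Nearly the whole Hox family was silent in these organoids, and the exception was Hoxa13 in 2 of the 3 LOH libraries. A gene was called silent where each of the 6 libraries had at most 3 counts. By that measure 37 of 38 Hox genes were silent, which is 97.4%, beside 33.3% of the 21865 genes annotated as protein-coding and 62.3% of all genes in the table. Of the 38 Hox genes 27 had no count in any library (71.1%, beside 22.4% of protein-coding genes). Summed over the 38 genes, the heterozygous libraries of lines 6, 23 and 34 had 2, 5 and 2 counts, and the LOH libraries had 26, 11 and 0. Without Hoxa13 these sums were 2, 5 and 2 against 2, 3 and 0, so the groups overlapped.

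The depth sets what silent means here. A count of 0 allows up to 3 counts, which correspond to 0.1 CPM in the deepest heterozygous libraries and 0.223 CPM in the shallowest one, heterozygous line 23. Scaled for gene length, 3 counts of a Hox gene correspond to between 0.04 and 0.344 TPM over the 38 genes and 6 libraries, with a median of 0.078 TPM. These are the levels that a count of 0 allows, and single counts were also recorded below them. In bulk RNA, fewer cells with a transcript and less of it per cell cannot be told apart.

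**Figure D1:**
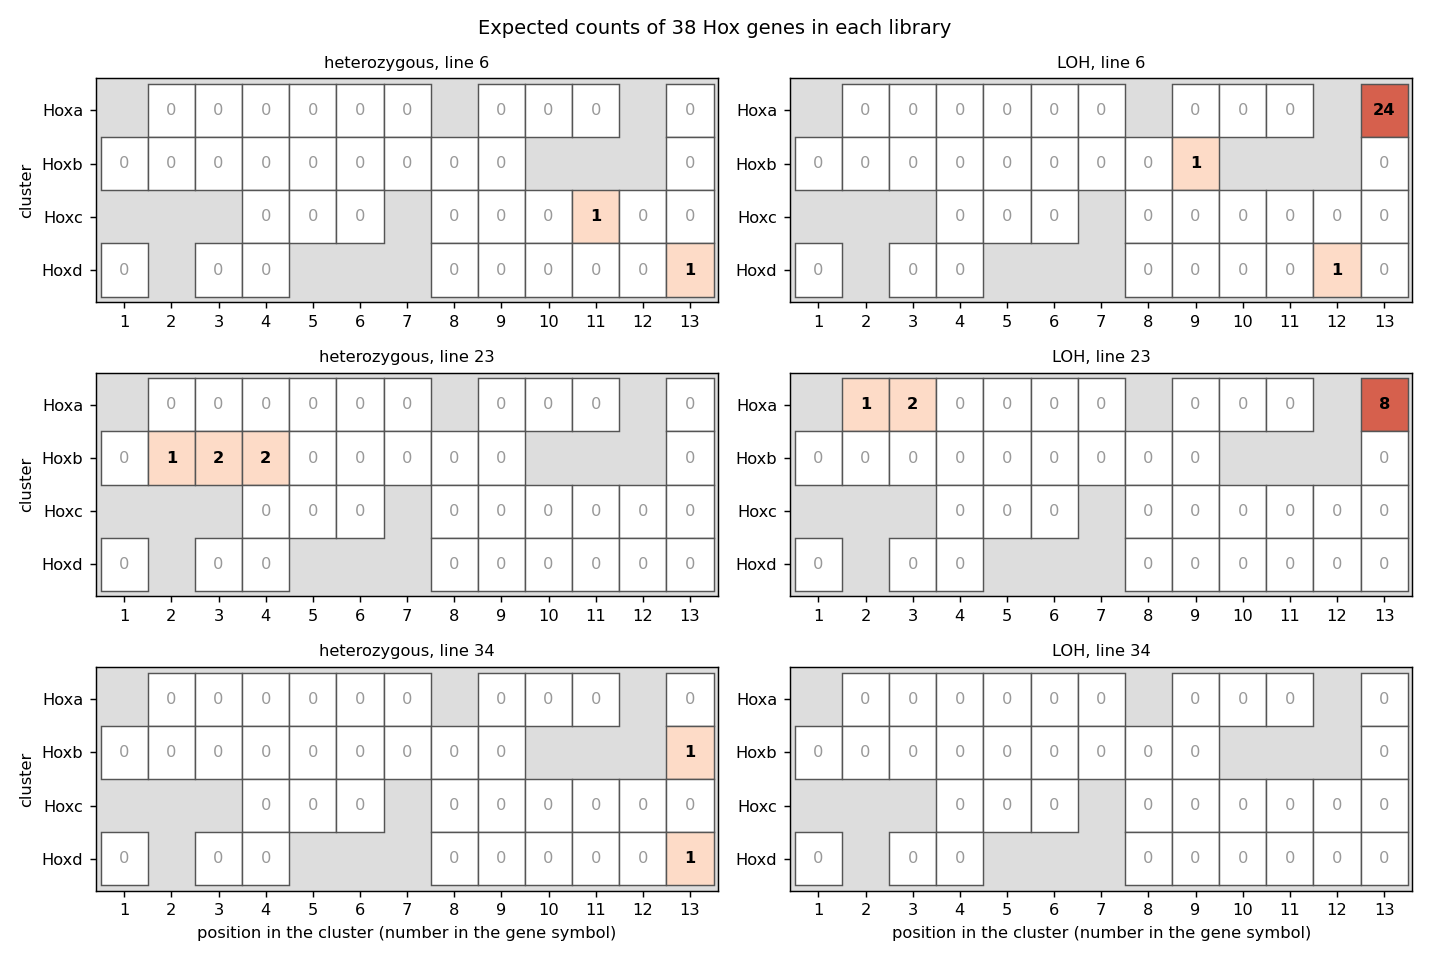
Expected counts of 38 Hox genes, 1 panel per library, with the cluster on the vertical axis and the position (the number in the symbol) on the horizontal axis. White tiles are 0 counts, pale tiles 1 to 3 counts, dark tiles more, and grey marks positions for which no gene is reported. The 2 dark tiles are Hoxa13 with 24 and 8 counts in the LOH libraries of lines 6 and 23.

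In the Hoxa cluster 7 of 10 genes had no count in any library. They are Hoxa4, Hoxa5, Hoxa6, Hoxa7, Hoxa9, Hoxa10 and Hoxa11, an unbroken run through the middle of the cluster. The genes with any count lie on either side of this run, and of these Hoxa2 and Hoxa3 were silent by the measure above. Towards the anterior end Hoxa2, which patterns the hindbrain and its neural crest, and Hoxa3, which takes part in forming the thymus and parathyroid, had 1 and 2 counts in LOH line 23 and 0 in the other libraries. At the posterior end stood Hoxa13. In TPM the cluster summed to 0 in each heterozygous library and to 0.59, 0.26 and 0 in the LOH libraries of lines 6, 23 and 34.

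The 3 other clusters were silent throughout. In the Hoxb cluster Hoxb1, Hoxb5, Hoxb6, Hoxb7 and Hoxb8 were at 0 in every library. Hoxb2, Hoxb3 and Hoxb4, 3 neighbours, had 1, 2 and 2 counts in heterozygous line 23, the shallowest library, and none elsewhere. Hoxb9 had 1 count in LOH line 6 and Hoxb13 had 1 count in heterozygous line 34. In the Hoxc cluster 8 of 9 genes, Hoxc4, Hoxc5, Hoxc6, Hoxc8, Hoxc9, Hoxc10, Hoxc12 and Hoxc13, had no count, and Hoxc11 had 1 count in heterozygous line 6. In the Hoxd cluster Hoxd1, Hoxd3, Hoxd4, Hoxd8, Hoxd9, Hoxd10 and Hoxd11 were at 0 throughout and Hoxd12 had 1 count in LOH line 6. Hoxd13, which takes part in forming the digits and the end of the gut, had 1 count each in heterozygous lines 6 and 34.

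By position, the central genes had the fewest counts. Silent genes had at most 2 counts in a library, below the 3 that a count of 0 allows. No trend by position can thus be read from them. Of the 15 genes at positions 4 to 8, 14 had no count and Hoxb4 had 2. All 7 genes at positions 1 to 3 were silent, 4 of them with 1 or 2 counts in a library. Among the 16 genes at positions 9 to 13, 15 were silent and 10 had no count. Of the 46 counts on Hox genes in all 6 libraries, 35 fell on the 4 genes at position 13, and 32 of these were of Hoxa13.

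Hoxa13 (ENSMUSG00000038203.18; chromosome 6, 52257694 to 52260880, minus strand, GRCm38) encodes a factor required for the formation of the hindgut, the urogenital tract and the digits. It had 0 counts in each of the 3 heterozygous libraries, and 24, 8 and 0 counts in the LOH libraries of lines 6, 23 and 34. The exact 95% Poisson interval ran from 15.4 to 35.7 counts for LOH line 6 and from 3.45 to 15.8 for LOH line 23, which covers counting error only. These counts correspond to 1.4 and 0.302 CPM, and to 0.59 and 0.21 TPM. LOH line 6 was the highest, LOH line 34 was at 0 like the heterozygous libraries, and so the groups overlapped. At 0.59 TPM Hoxa13 stood above 36.2% of the 20127 genes detected in LOH line 6, and at 0.21 TPM above 29.0% of the 22187 detected in LOH line 23.

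Hoxa13 was singled out after its values had been seen, and it is in the normalized table only because of its counts in 2 LOH libraries. The values and tests of its group difference are therefore a description and no independent evidence. Its mean was 0.566 ± 0.735 CPM (SD, n = 3) in the LOH libraries. Pooled over each group, 32 counts in the LOH libraries were set against the 3 counts that a total of 0 allows in the heterozygous libraries. The ratio was 12-fold (0.491 against 0.0409 CPM). It leaves out the counting error of the LOH counts, so it is no strict lower bound. Single libraries moved this ratio. It was 4.08-fold without LOH line 6, 2.41-fold without both libraries of line 6, and 7.11- and 7.12-fold without heterozygous line 6 or 34. Tested by exact permutation of the 6 libraries (two-sided), the difference had p = 0.4. The smallest value for 3 against 3 libraries is 0.1 without ties. With the libraries tied at 0 no value below the one obtained was possible, so this test could not decide on the difference. The SD of the LOH libraries was larger than their mean.

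None of the 38 Hox genes had enough counts to enter the quasi-likelihood test of edgeR, which called 5.21% of the 14537 genes it tested at an adjusted p under 0.05. Without a filter on low counts 11 Hox genes entered and none passed, where 3.62% of 27027 genes did. Hoxa13 was the 1 Hox gene there with an unadjusted p under 0.05 (edgeR adjusted p 0.102). DESeq2, which called 14.2% of the 15925 genes to which it gave an adjusted p, called Hoxa13 with an adjusted p of 0.0477. The call on Hoxa13 thus differed between tools, and it rests on the counts that singled the gene out.

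Reads of Hoxa13 were assigned by RSEM to its transcripts. In LOH line 6 all 24 counts were assigned to 1 protein-coding transcript of 2395 bases and 2 exons, the longest of the 6 in the table. In LOH line 23 that transcript had 5.55 of the 8 counts, and 2 noncoding models of 766 bases had 1.23 each. No other annotated gene of the table overlaps Hoxa13. The model 9530018H14Rik, beside Hoxa13 on the same strand, had 2 counts in LOH line 23 and none elsewhere.

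Evx1, an even-skipped homeobox gene that lies 52617 bases beyond Hoxa13, was detected in LOH line 23 and not in LOH line 6. It had 76 counts in LOH line 23 (95% Poisson interval 59.9 to 95.1), which is 0.94 TPM, and 0 in the other 5 libraries. Its antisense neighbour Evx1os had 34 counts (0.55 TPM) in the same library and 0 elsewhere. The 2 models overlap by 1335 bases on opposite strands, and the strand setting of the counting is not given in the sources used here, so reads there cannot be told apart. Both were singled out after their values had been seen, and neither entered the edgeR test. Without the filter the edgeR adjusted p was 0.144 for Evx1 and 0.185 for Evx1os. Hottip, a noncoding RNA that starts 1894 bases from Hoxa13 and activates the posterior Hoxa genes in other cells, was at 0 in all 6 libraries.

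**Figure D2:**
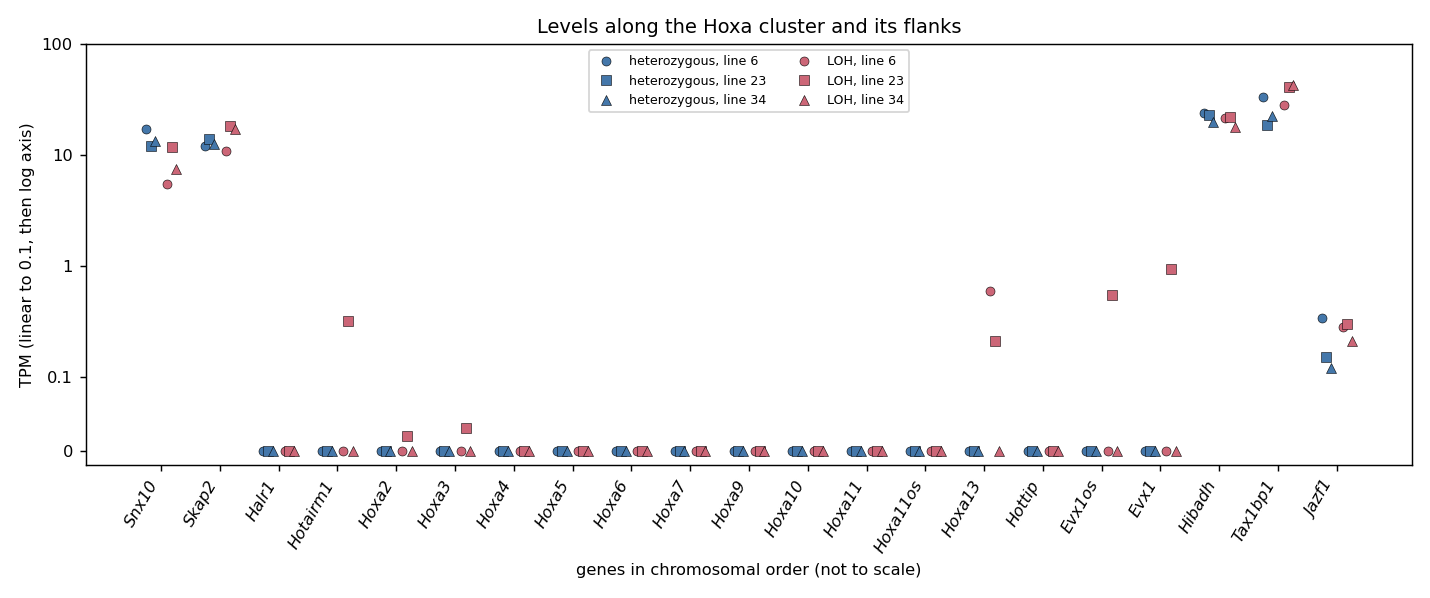
Level in TPM (vertical axis, linear up to 0.1 and logarithmic above) of the Hoxa genes and selected neighbours in chromosomal order (horizontal axis), with 1 point per library, coloured by group and shaped by organoid line. Snx10, Skap2, Hibadh and Tax1bp1 lie above 5 TPM in every library, while the genes between Skap2 and Hibadh are at or near 0 except Hoxa13, Evx1os, Evx1 and the single count of Hotairm1.

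The other transcripts of the clusters were as quiet. The spans from the first to the last Hox gene, together with Hottip and Hotair, hold 47 further annotated genes, antisense and other noncoding transcripts and 7 miRNA genes among them. Of these 42 had no count in any library and 4 had 1 or 2 counts in a single library, all 4 in the Hoxa cluster. Hotairm1, an antisense RNA of the anterior Hoxa genes, had 1 count, in LOH line 23, the library with counts on Hoxa2 and Hoxa3. Gm11539, a processed pseudogene in the Hoxb cluster, reached 4.21 counts, fractions that RSEM divides among similar sequences. Hotair had no count, and neither did the miRNA genes, those of the Mir10 and Mir196 families among them, whose short mature products this kind of library is not made to capture.

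Several genes beside the Hoxa and Hoxc clusters were expressed, while those listed beside the Hoxb cluster were at or near 0. Of 15 flanking genes 10 were tested and none passed in the edgeR test, beside 5.21% of all genes. At an unadjusted p under 0.05 there were 3 of 10, beside 25.3% of all genes tested. Beside the Hoxa cluster Skap2 had 10.88 to 18.1 TPM and Hibadh 17.65 to 23.72 TPM over the 6 libraries. Beside the Hoxd cluster Mtx2 had 14.68 to 35.01 TPM on one side, and Evx2 on the other was at 0. Beside the Hoxc cluster Cbx5, which encodes a heterochromatin protein, had 45.49 to 80.84 TPM, and beside the Hoxb cluster Skap1 was at 0 and Ttll6 and Calcoco2 had at most 5 and 1 counts.

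Markers of other cell types were set beside Hoxa13. The summed level of the 12 fibroblast markers was 0.12, 0.1 and 0.28 TPM in the heterozygous libraries of lines 6, 23 and 34 and 1.32, 1.56 and 0.54 TPM in the LOH libraries, so the 2 libraries with Hoxa13 had the 2 highest sums. In the LOH libraries most of it came from Twist1, a regulator of mesenchymal genes and the only tested marker of the list. Twist1 had 1, 1 and 8 counts in the heterozygous and 22, 57 and 14 in the LOH libraries. It entered the test only through the LOH libraries, so the filter on low counts favoured its direction. It did not pass (adjusted p by edgeR 0.0625). Twist1 gave 0.82 and 1.26 TPM of the sums in LOH lines 6 and 23, whereas the matrix genes Col1a1, Col1a2 and Dcn stayed at 0.07 TPM or below and Col3a1 at 0. Some other listed markers were also higher in LOH libraries, at low counts. Pdgfra had 0 counts in each heterozygous library and 9, 1 and 2 in LOH lines 6, 23 and 34. Pdgfrb had 1, 0 and 0 counts against 5, 11 and 1, and Col1a1 had 1, 0 and 0 against 1, 7 and 2. Fap had 1, 0 and 2 counts against 0, 0 and 2, and Thy1 was at 0 throughout. The endothelial markers summed to 0.02 to 0.09 TPM in the heterozygous libraries and to 0.61, 0.08 and 0.1 TPM in LOH lines 6, 23 and 34, with Tek at 0.55 TPM in LOH line 6. The leukocyte markers summed to 35.69 to 41.89 TPM in the heterozygous and 16.61 to 30.39 TPM in the LOH libraries, most of it Cd14, and Adgre1 and Lyz2 were at 0 in all 6. Laptm5 of that list had 0 counts in each heterozygous library and 16, 2 and 1 in LOH lines 6, 23 and 34, and Cd68 had 1.72 to 2.02 TPM against 2.61, 5.56 and 10.76 TPM. The part of these cell types in the Hoxa13 counts was not tested.

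The partners of Hox proteins were expressed where Hox genes were not. Of 8 TALE cofactors 7 were tested, 3 above and 4 below 0, with a median log2 fold change of -0.18 beside 0.06 over all genes tested. None passed in the edgeR test, and none had an unadjusted p under 0.05. Meis2 had 17.99 to 26.12 TPM in the heterozygous and 13.21 to 14.84 TPM in the LOH libraries. Its log2 fold change was -0.38 (SE 0.19, adjusted p by edgeR 0.262). Pknox1 had 7.51 to 9.12 TPM in the heterozygous and 4.4 to 5.03 TPM in the LOH libraries. The log2 fold change of Pknox1 was -0.33 (SE 0.19, adjusted p by edgeR 0.323). Pbx2 had 10.35 to 12.03 TPM over the 6 libraries. Pknox2 was at 0 in every library.

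Among the 6 ParaHox genes, the sister group of the Hox genes, Cdx2 rose in the LOH libraries. Cdx2, an intestinal regulator that activates posterior Hox genes in the embryo, had 17.1, 27.1 and 31.7 CPM in the heterozygous and 70.1, 67.1 and 86.8 CPM in the LOH libraries of lines 6, 23 and 34. It was higher in each line, and its log2 fold change was 1.56 (SE 0.27, adjusted p by edgeR 0.029), where 3.55% of all genes tested were called higher. With the line as a block the edgeR adjusted p was 0.0645. Without heterozygous line 6, 23 or 34 it was 0.117, 0.133 and 0.116, and it was 0.0511 without LOH line 23, with log2 fold changes of 1.31 to 1.75. When any 1 heterozygous library was left out, no gene of all those tested was called. Cdx1 had 0 counts in each heterozygous library and 5, 5 and 3 in the LOH libraries. Pooled and set against 3 heterozygous counts, the ratio per library size was 4.88-fold, leaving out the counting error of the LOH counts. Pdx1, the pancreatic regulator whose promoter drives Cre here, had 5.94 to 17.73 TPM and did not pass (edgeR adjusted p 0.718). Cdx4, Gsx1 and Gsx2 were at 0 throughout. In the LOH libraries of lines 6, 23 and 34, Cdx2 stood at 70.1, 67.1 and 86.8 CPM beside 26, 11 and 0 counts on Hox genes. A link between them was not tested.

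**Figure D3:**
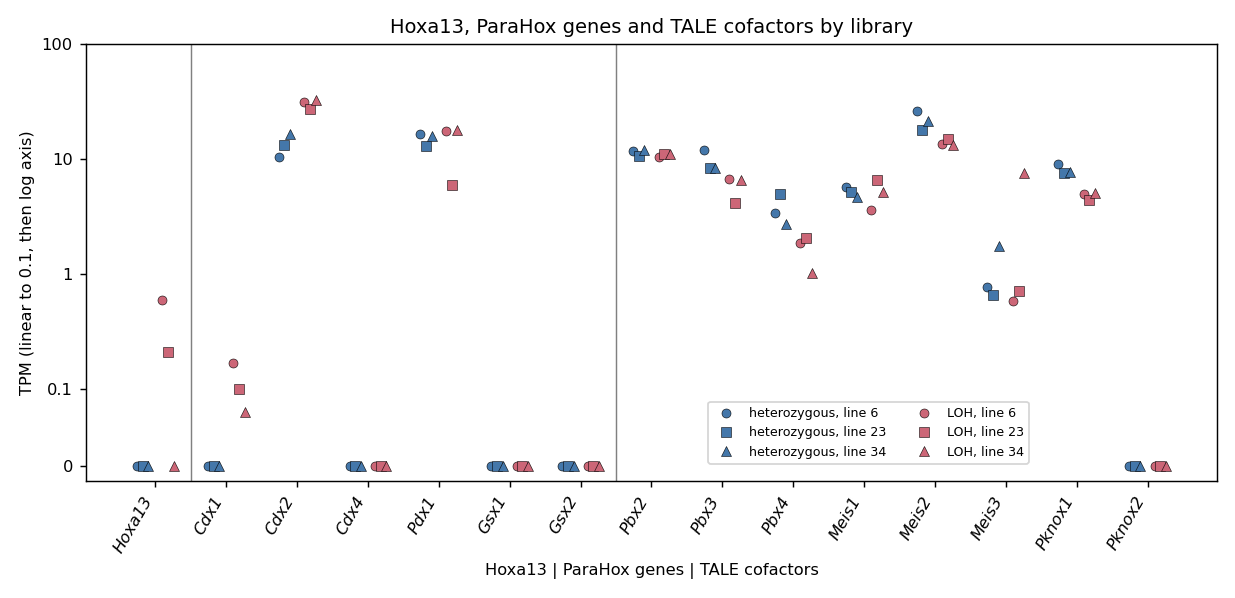
Level in TPM (vertical axis, linear up to 0.1 and logarithmic above) of Hoxa13, the 6 ParaHox genes and the 8 TALE cofactors, with 1 point per library, coloured by group and shaped by organoid line. Cdx2 lies above 10 TPM in every library with all 3 LOH points above the heterozygous ones, while Hoxa13 is above 0 in LOH lines 6 and 23 alone.

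Genes that open or close Hox clusters were present in all libraries. Of 27 Polycomb genes all were tested and 1 passed, beside 5.21% of all genes, and 6 had an unadjusted p under 0.05, beside 25.3%. The gene that passed was Ezh1, which encodes a methyltransferase of histone H3. Ezh1 had 20.86 ± 3.39 CPM in the heterozygous and 41.33 ± 3.4 CPM in the LOH libraries (SD, n = 3 per group). It rose by 0.99 on the log2 scale (SE 0.19, adjusted p by edgeR 0.0383, and 0.108 with the line as a block). It did not pass without any 1 of the heterozygous libraries (0.12 to 0.215), where no gene of all those tested did. Nor did it pass without LOH line 23 (0.0756) or with limma on log2(TPM + 1) (0.159). Over the 27 Polycomb genes the median was 0.24 on the log2 scale, with 18 above 0. Of 14 trithorax and demethylase genes, among them Kmt2a and Kdm6a, 14 were tested, none passed and 1 had an unadjusted p under 0.05 (edgeR), with a median of 0.09.

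Of the retinoic acid genes 6 rose in the LOH libraries while the anterior Hox genes, their targets in the embryo, stayed silent. Of 18 genes 13 were tested and 6 passed in the edgeR test, all higher, beside 3.55% of all genes tested. Stra6, with 10, 4 and 21 heterozygous counts, and Cyp26b1, with 9, 3 and 2, passed the filter on low counts only through the LOH libraries, so their direction was favoured by it. With at least 10 counts required in every library 4 were called, beside 627 of 11928 genes tested. Stra6 and Cyp26b1 could not enter that fit. With limma on log2(TPM + 1) 3 were called, beside 1911 of 11918 genes tested. With the line as a block 2 passed, Aldh1a3 and Dhrs3, beside 1.22%. Aldh1a3, an enzyme that makes retinoic acid, had 2.795 ± 0.319 CPM in the heterozygous and 16.33 ± 5.71 CPM in the LOH libraries (SD, n = 3 per group), and rose by 2.54 on the log2 scale (SE 0.33, adjusted p by edgeR 0.0164). Rdh10, which makes its precursor retinaldehyde, rose by 2.34 (SE 0.38, 0.0262), and Dhrs3, which turns retinaldehyde back, by 2.29 (SE 0.38, 0.0274). Stra6, a receptor for retinol uptake, rose by 4.88 on the log2 scale (SE 1.04, 0.0457), or 2.93 without both libraries of line 23, and Cyp26b1, which degrades retinoic acid, by 3.32 (SE 0.7, 0.0442). The receptor gene Rarg rose by 0.96 (SE 0.2, 0.0423), and it did not pass with upper quartile scaling (0.0538), without a filter (0.0532) or with limma (0.218). Stra6 did not pass with limma either (0.0899). No call of the 6 held when any 1 heterozygous library was left out, with edgeR adjusted p-values from 0.098 to 0.223. In those fits no gene of all those tested was called, so the loss is not particular to the 6. Without LOH line 23 Rarg (0.0806) and Cyp26b1 (0.0882) did not pass.

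**Figure D4:**
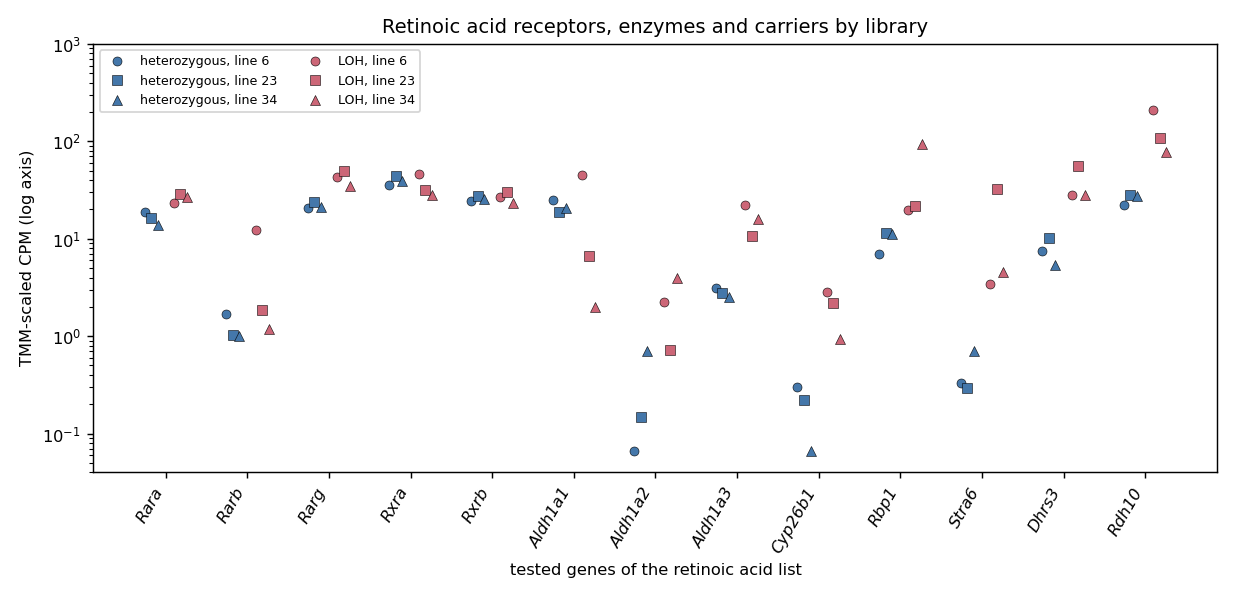
TMM-scaled CPM (vertical axis, logarithmic) of the 13 tested genes of the retinoic acid list, with 1 point per library, coloured by group and shaped by organoid line. For Rarg, Aldh1a3, Cyp26b1, Stra6, Dhrs3 and Rdh10 all 3 LOH points lie above the 3 heterozygous points.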

How the data were processed

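Per the labels' protocols, libraries of total RNA were prepared with a kit that keeps the strand. STAR 2.5.2b, RSEM 1.3.0, DESeq2 1.44.0 and build GRCm38.p5 are named in the submitters' processing notes. The deposited expected counts are estimated counts per gene or transcript, and the deposited TPM values are scaled by the authors for length and depth. The deposited normalized signal was used for names and membership alone. Annotation came from GENCODE release 21 (GRCm38), which held 53274 of 53379 identifiers.

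Libraries were grouped by title. Expected counts were rounded, filtered by filterByExpr, scaled by TMM and tested with edgeR 4.0.16 (quasi-likelihood, two-sided, Benjamini-Hochberg adjustment over all tested genes, threshold 0.05) in R 4.3.3. Log2 CPM used a prior count of 2. DESeq2 1.42.0 and limma 3.58.1 on log2(TPM + 1) or log2(TPM + 0.1) were alternatives. Nothing says that libraries of a group are separate biological replicates beyond the line number, so p-values measure the spread between these samples.

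Libraries with 1 number come from 1 organoid line by title, so the numbers pair them. Deviations from the group means correlated at -0.295, 0.00943 and 0.294 in lines 6, 23 and 34, across genes. Between libraries of different lines the same correlation ran from -0.387 to 0.296. The main edgeR fit left the pairing out, and the fit with the line as a block took it in.

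Some genes of the family and the lists are not reported here. Members and lists were chosen with earlier results of these data known. Named were Hox genes with an adjusted p under 0.05 or a mean of at least 1 CPM (none). Hoxa13, with a mean of 0.283 CPM, was singled out after its values were seen. From each other list those with an adjusted p under 0.05 were named, otherwise up to 3 by mean CPM. Further genes were named to show the range. On simulated counts for this comparison the edgeR test called 56 of 74 genes changed 16-fold, 34 of 63 changed 4-fold and 1 of 63 changed 2-fold, with 4 false calls over 14056 genes.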

Additional observations from a re-analysis of the deposited data

Results flagged for a closer look

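Of the 17 genes of the cofactor, regulator and flank lists that the naming rule picked, 5 were higher in the LOH library of some lines and lower in that of others. The same held for 38 of the 73 tested genes of these lists. This difference was not tested, since a line has a single library of each genotype. For the 5 genes the highest and the lowest line differed in the log2 ratio of LOH to heterozygous by 2.26 for Kmt2d, 3.18 for Ash1l, 1.0 for Ash2l, 0.63 for Cbx5 and 3.64 for Hnrnpa3. Line 6 had the lowest ratio for Kmt2d, Ash1l and Hnrnpa3. No Hox gene had counts in both libraries of a line, so none could be compared in this way.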

How the results depend on the processing

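The count of 37 silent Hox genes was the same with a limit of 10 counts and, in an alternative chosen after seeing the data, without each library or line. No Hox gene entered the edgeR test with a filter on low counts, with the line as a replicate block too, so its 0 calls say nothing of stability. Without the filter 11 entered and 0 were called, and DESeq2 called 1, Hoxa13. Over all genes 757 were called, against 213 with the line as a block, 2266 with DESeq2, 1911 and 1753 with limma on log2(TPM + 1) and log2(TPM + 0.1), and 0 to 2449 when a library or a line was left out. No gene was called when any 1 heterozygous library was left out, or when both libraries of line 23 or of line 34 were. The summed Hoxa difference of 0.283 TPM (LOH minus heterozygous) was 0.604 in CPM, another unit, and 0.13 to 0.425 TPM when a library was left out. The pooled ratio for Hoxa13, which is no strict lower bound, ran from 2.41 to 17.9 when a library or a line was left out.

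Of the list genes only the 17 picked by the naming rule were followed through the alternatives. Signs turned for 7 of them, none of which had passed. With limma they were -0.08 in both for Pbx2, -0.04 and -0.03 for Kmt2d and -0.11 and -0.12 for Hibadh. Without a library or a line the values ran from -0.22 to 1.22 for Kmt2d, from -0.05 to 1.56 for Ash1l, from -0.4 to 0.17 for Ash2l, from -0.26 to 0.05 for Cbx5 and from -1.22 to 0.76 for Hnrnpa3. Ash2l was 0.02 with at least 10 counts everywhere. The cause was not tested.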
